A study of Bos taurus with 16 samples.

Results

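Nuclear pore proteins, or nucleoporins, were followed through bovine pre-implantation development by the loci whose gene name begins with NUP and a number or is NUPL1, NUPL2, TPR, RANBP2, SEH1L, SEC13, AAAS, RAE1, GLE1, POM121 or TMEM48. The rule took 35 of the 27393 counted loci, with 31 gene names, since RAE1, NUP153, NUP107 and NUP54 each had 2 loci. The RNA-Seq data came from single oocytes and embryos of cattle (Bos taurus) that had matured and developed in vivo, 16 samples in all and 2 for each of 8 stages. The stages were the mature oocyte (MII), embryos of 2, 4, 8 and 16 cells (2C, 4C, 8C and 16C), the early morula (32C), the compact morula (CM) and the blastocyst (BL). Treatment, breed and genotype are not given in the sources used here, and the total RNA of each oocyte or embryo went through 2 rounds of amplification before sequencing. The labels do not say whether the samples of a stage came from separate donors, so the p-values measure the spread between these samples only.

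The nuclear pore complex is the channel in the nuclear envelope through which messenger RNAs leave the nucleus and proteins enter it. It is built from rings stacked around a central channel. The Y complex and the inner ring form the scaffold, membrane nucleoporins anchor it, filaments rich in phenylalanine and glycine fill the channel, and a set of proteins projects from the cytoplasmic face while a basket hangs into the nucleus. In the early embryo every cleavage adds nuclei whose envelopes need new pores, at first from maternal stores. In vivo, the bovine embryo activates its own genome (EGA) after the 4-cell and by the 8-cell stage, so MII, 2C and 4C samples (6) were compared as the period before EGA with 8C, 16C, 32C, CM and BL samples (10) as the period after it.

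Values are normalised read counts, the reads of a locus divided by a size factor of the sample and not by gene length, so they are compared between stages and not between genes. Between 607672 and 3379426 reads per sample lay behind them, with a median of 1347534.5, and 3 reads, taken as the detection floor, corresponded to 1.09 to 5.40 normalised reads. The floor covers counting error only. Oocyte markers summed to 609 to 1060 normalised reads in each sample from MII to 4C and to 3.04 to 139 in each later sample, and in 8C the replicates stood at 7.21 and 139. BMP15 was at 0 in every sample. The 8 listed cumulus and granulosa cell markers summed to 112 to 399 from MII to 4C and to 0 to 39.0 later. Most of that sum was HAS2, at 98.1 to 367 normalised reads in each sample from MII to 4C and at 0 to 21.8 later. CYP19A1, FSHR and PTX3 also had reads from MII to 4C, while TNFAIP6, CYP11A1, AMH and FOXL2 were at 0 there. Among the blastocyst markers KRT8 (543 and 543), KRT18 (401 and 396) and GATA3 (182 and 149) were highest in the BL samples, where CDX2 was at 0 and SOX17 at 2.03 and 3.17. GATA6 had 0 to 7.12 normalised reads before EGA and 119 to 393 after it, with 171 and 179 in BL. POU5F1 was at 284 to 505 before EGA and at 1847 to 8628 after it, and NANOG was at 0 before EGA. Differences are on the scale of log2 of the normalised read count plus 1, which understates the change of loci with few reads, and they were tested with limma across all loci with Benjamini-Hochberg adjustment at 0.05.

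Transcripts of every part of the pore were present from the oocyte to the blastocyst. Of the 35 loci, 27 had reads in every sample and 23 had at least 3 reads in every sample. The exceptions with fewest reads were NUP85, a Y complex member without a read in any sample, the second NUP54 locus (XLOC_060661) with 2 reads in all, and NUP210, a membrane nucleoporin with 6 reads, all of them in MII replicate 1. NUP85 lay within a run of 2578 consecutive loci without reads, so its 0 is not informative about the gene. These 3 loci were not tested. TMEM48, the membrane nucleoporin NDC1 that anchors the scaffold, and NUPL2, which takes part in mRNA export at the cytoplasmic face, passed the filter on low counts for the stages and not the filter for the 2 periods. TMEM48 was between 0 and 3.65 normalised reads before EGA and between 2.22 and 10.8 after it. NUPL2 ranged from 0 to 11.3 before EGA and from 0 to 11.5 after it.

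Level differed between the 8 stages for 19 of the 32 nucleoporin loci tested (limma, moderated F), or 59.4%, while 66.7% of all 9670 loci passed the same test. By part of the pore, 5 of 8 loci of the cytoplasmic face, 5 of 8 of the Y complex, 3 of 5 of the inner ring, 1 of 4 of the central channel, 3 of 4 of the basket and 1 of 2 of the membrane ring passed, as did NUP210L. The stage with the highest mean was MII for 11 loci and 2C for 5, and the stage with the lowest mean was BL for 13. Over all loci tested, MII was highest for 19.6% and 2C for 9.29%, and BL was lowest for 11.0%. These counts depended on the scaling, since reads scaled to the total of the sample put the highest mean at 32C for 15 nucleoporin loci and at MII for 5 (46.9% and 15.6%, against 22.6% and 6.15% of all loci). With that scaling the lowest mean was at MII for 13 nucleoporin loci and at BL for 10, against 34.0% and 8.83% of all loci. The map of nucleoporin loci by sample orders them by part of the pore.

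**Figure D1:**
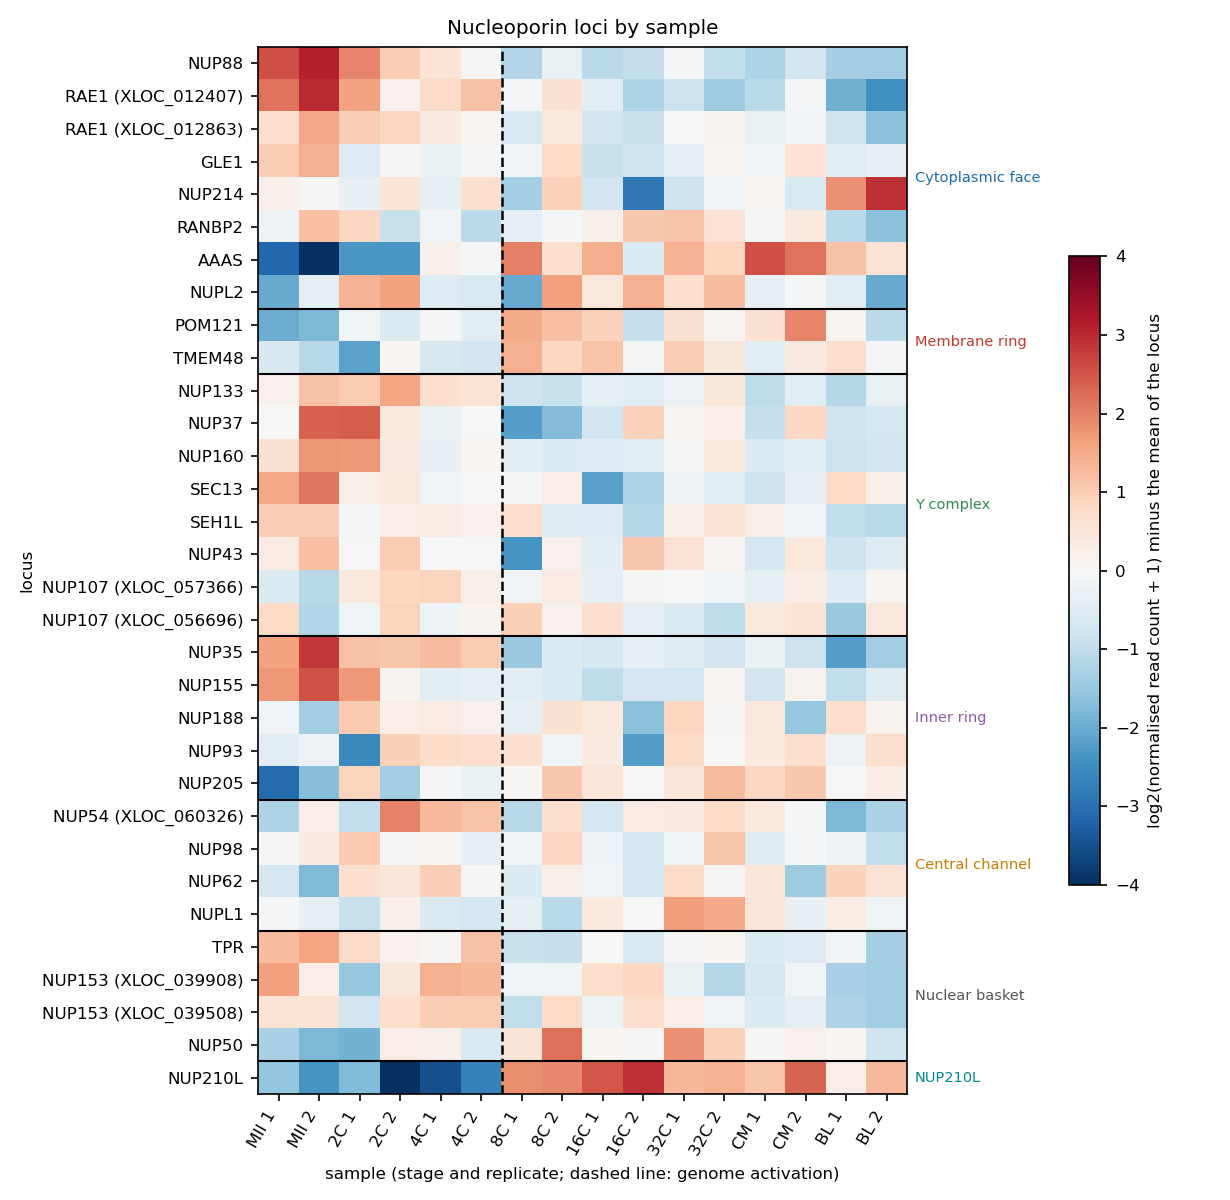
Each row is a nucleoporin locus and each column a sample in order of stage, with the colour giving log2 of the normalised read count plus 1 minus the mean of the locus over the 16 samples, and the dashed line marking EGA. NUP88, NUP35 and the larger RAE1 locus are red in the MII oocytes, whereas NUP210L is blue before EGA and red after it and AAAS is bluest in MII and 2C, and the 3 loci under 10 reads in all are left out.

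Between the periods before and after EGA nucleoporin transcripts moved in both directions. A rise or fall between the periods is the mean of the 10 later samples against that of the 6 earlier ones, MII included, and not the step from 4C to 8C, which is given separately. Of 30 loci tested with limma, 10 fell and 5 rose, that is 33.3% and 16.7%, whereas 29.9% of all 6910 loci fell and 36.9% rose. In either direction 50.0% of the nucleoporin loci passed, against 66.8% of all, and at an unadjusted p under 0.05 there were 53.3%, against 69.4%. The median log2 difference was −0.55 over the nucleoporin loci and 0.23 over all loci. The split depended on the scaling: with reads scaled to the total of the sample 3 nucleoporin loci fell and 6 rose (of 30, against 23.1% and 41.6% of all loci), and the medians were −0.08 and 0.66. The largest falls were those of NUP88, NUP35 and the RAE1 locus with most reads, and the largest rises those of NUP210L and AAAS. Samples of the 2 periods did not overlap for NUP210L, with every sample after EGA above every sample before it, which held for 16.0% of all loci, and for NUP88 and NUP35, with every sample after EGA below, which held for 14.1%. Since each sample held the RNA of a whole oocyte or embryo, fewer cells of a type and less RNA per cell cannot be told apart. The marker sums above moved with the same periods, and their part in these differences was not tested. Without the MII oocytes, a comparison added after the data were seen, 2 of 31 loci rose and 7 fell (6.45% and 22.6%, against 32.7% and 28.3% of all 7741 loci), and the falls of NUP88 and NUP35 and the rises of NUP210L and AAAS were called again (log2 differences of −1.80, −2.04, 4.94 and 2.37). With 2C and 4C against 8C and 16C alone, the calls of both RAE1 loci, NUP155, NUP160, NUP37, NUP50, NUP205, POM121, SEC13 and TPR were lost. With these fewer samples all 10 kept their direction, from NUP37 at −1.59 in place of −1.32 to NUP205 at 0.61 in place of 1.49.

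**Figure D2:**
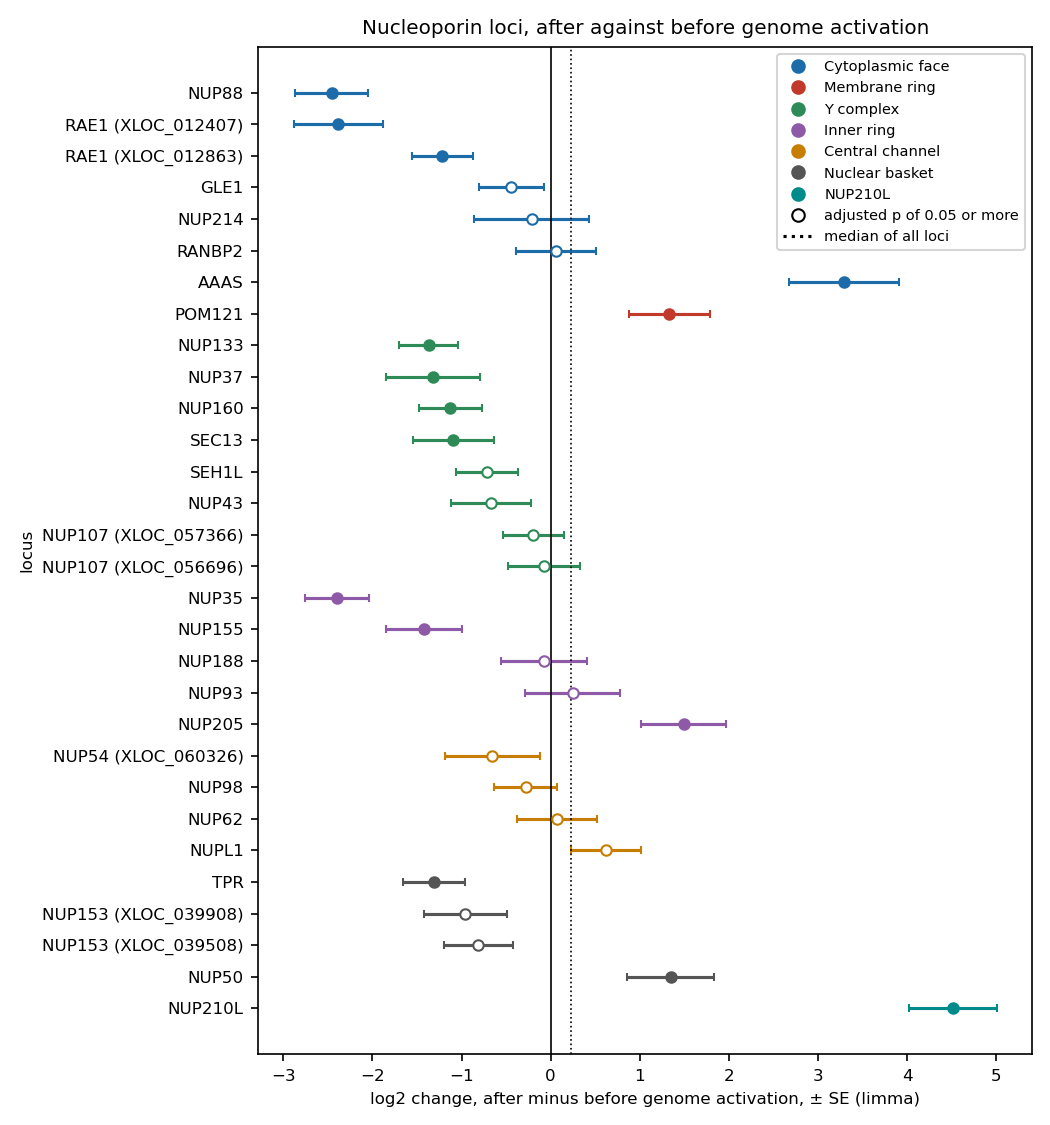
Log2 difference of each tested nucleoporin locus, mean of the 10 samples after EGA minus mean of the 6 before it, with limma standard errors, coloured by part of the pore. Filled points mark the 15 loci with an adjusted p under 0.05, NUP210L lies farthest right at 4.52, NUP88 farthest left at −2.46, and the dotted line is the median of all loci at 0.23.

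Counts for each part of the pore stand against the 29.9% of all loci that fell between the periods and the 36.9% that rose. On the cytoplasmic face 3 of 7 tested loci fell and 1 rose. NUP88, which binds NUP214 and holds the export platform at this face, had 115 to 958 normalised reads before EGA, with a median of 326, and 41.2 to 108 after it, with a median of 53.9. The stage means were 811 ± 208 in MII, 326 ± 148 in 2C, 138 ± 32.6 in 4C and 69.1 ± 28.9 in 8C (SD, n = 2 each), and between 42.4 and 81.9 thereafter. Of these steps, 2C against MII (−1.37, adjusted p = 0.211; −0.48 with reads scaled to total reads) and 8C against 4C (−1.04, adjusted p = 0.149) were tested, and neither passed in limma. The mean after EGA was 5.49-fold lower on the log2 scale used (log2 −2.46, SE 0.41, limma adjusted p = 2.29e-05). NUP214 itself, with 4.61 to 10.6 normalised reads before EGA and 0 to 53.9 after it, gave a log2 difference of −0.21 (SE 0.65, adjusted p = 0.785), and its direction turned with reads scaled to total reads (0.18) and with edgeR (0.45). Its highest values were those of the BL samples, 24.3 and 53.9.

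RAE1, an mRNA export factor that binds NUP98, had the nucleoporin locus with most reads (XLOC_012407). Its mean share of nucleoporin reads was 59.7% to 78.4% in the stages from MII to 8C and 32.8% to 46.7% from 16C on. The strand is not given, so RAE1 mRNA and an antisense transcript cannot be told apart at this locus. That locus had 3660 to 25641 normalised reads before EGA, with a median of 8610, and 589 to 4873 after it, with a median of 1641. The MII oocytes held 14537 and 25641, the 4C embryos 5499 and 7318, the 8C embryos 3075 and 4873 and the blastocysts 853 and 589. All samples before EGA except 2C replicate 2, at 3660, were above the highest sample after it. The fall was 5.22-fold (log2 −2.39, SE 0.50, adjusted p = 0.000271). It was not called when 2C and 4C were compared with 8C and 16C alone (−1.24, adjusted p = 0.0811). The second RAE1 locus (XLOC_012863), with 65.0 to 182 normalised reads before EGA and 19.0 to 80.3 after it, also fell (−1.21, SE 0.35, adjusted p = 0.00401), though not with reads scaled to total reads (−0.74, adjusted p = 0.0983).

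AAAS, whose product aladin is tethered to the pore by NDC1, went the other way. It had 1.85 and 0 normalised reads in the MII oocytes, 3.96 and 4.01 in 2C, 27.7 and 22.7 in 4C and 101 and 39.0 in 8C. From 16C on it ranged from 16.2, in 16C replicate 2, to 150, in CM replicate 1. Thus the level already stood higher in 4C than in 2C, and the only later sample below the 4C embryos was 16C replicate 2. The rise between the periods was 9.79-fold on the log2 scale used (3.29, SE 0.62, adjusted p = 8.53e-05), while the step from 4C to 8C was 1.29 (SE 0.75, adjusted p = 0.188) and did not pass. GLE1, an activator of the export helicase, was at 45.1 to 179 before EGA and 34.8 to 112 after it (−0.44, SE 0.36, adjusted p = 0.288). RANBP2, the large filament protein that holds RANGAP1 at the pore, was at 29.2 to 141 and 19.0 to 135 (0.06, SE 0.45, adjusted p = 0.912). Neither passed the test, and the direction of GLE1 turned with reads scaled to the total of the sample (0.04) and that of RANBP2 with edgeR (−0.04).

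**Figure D3:**
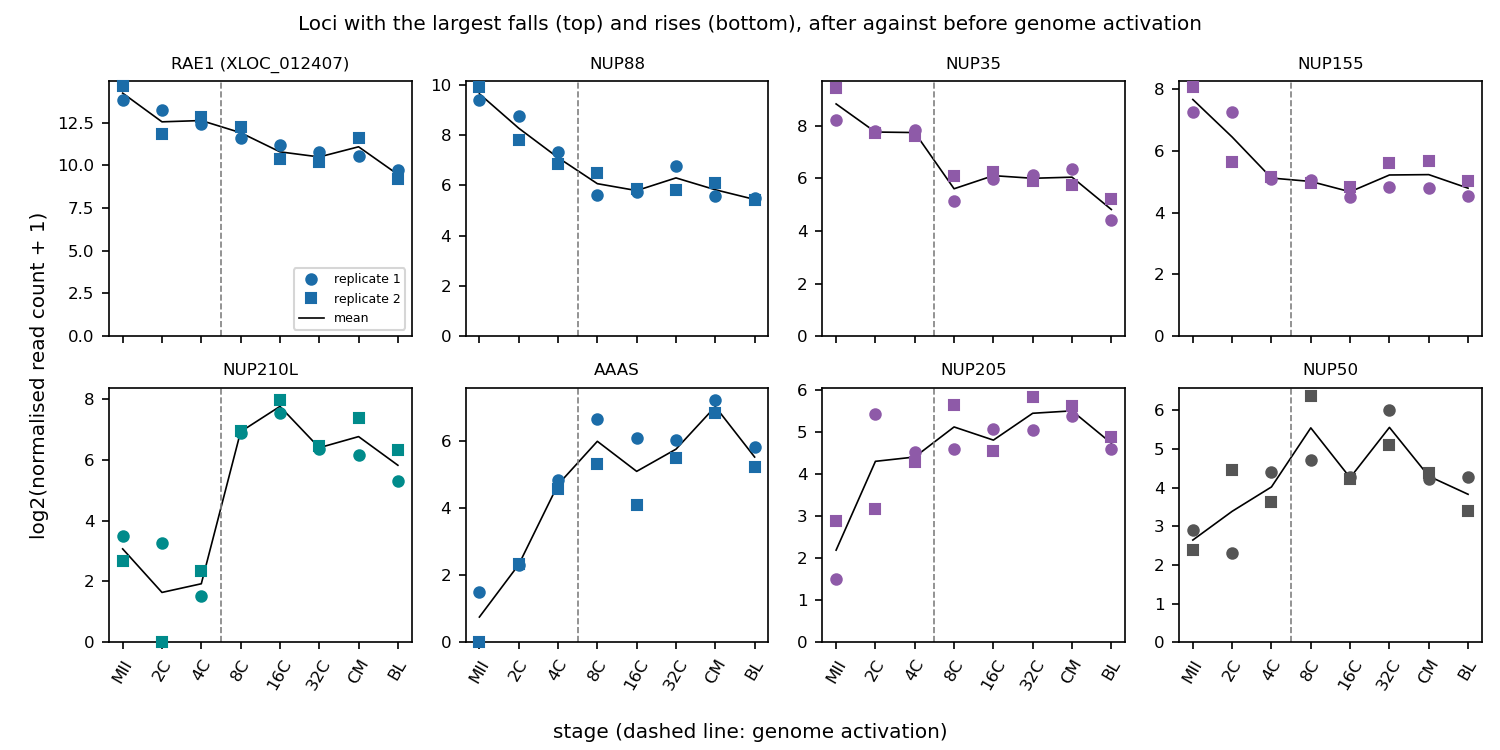
Log2 of the normalised read count plus 1 of 8 nucleoporin loci by stage, with circles and squares for replicates 1 and 2, a line through the stage means and a dashed line at EGA. The upper panels show the 4 largest falls between the periods and the lower panels the 4 largest rises; the stage means of NUP88 are lower from each stage to the next from MII to 8C, whereas NUP210L stays at or below 10.2 normalised reads up to 4C and at or above 38.6 from 8C on.

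In the membrane ring POM121, an integral membrane protein of the pore, was the only locus tested between the periods. It ranged from 18.5 to 73.8 normalised reads before EGA and from 36.4 to 297 after it, and was lowest in the MII oocytes (18.5 and 21.3). The rise was 2.52-fold (1.33, SE 0.46, adjusted p = 0.0143) and was not called without the MII oocytes (0.80, adjusted p = 0.151). Near-identical copies of POM121 exist in mammalian genomes, and how reads shared between copies were counted is not given in the sources used here, so its level is uncertain. TMEM48, kept out by the filter on low counts, was called higher without that filter (1.39, adjusted p = 0.0217).

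Of the Y complex, the scaffold subunit that lines both faces of the pore, 4 of 8 tested loci fell and none rose with limma, against 29.9% and 36.9% of all loci. NUP133 had 44.3 to 119 normalised reads before EGA and 17.2 to 54.0 after it (−1.37, SE 0.33, adjusted p = 0.00108). NUP160 had 41.5 to 178 and 28.4 to 68.0 (−1.13, SE 0.35, adjusted p = 0.00803). The periods of both overlapped. NUP37 fell as well (−1.32, SE 0.53, adjusted p = 0.0323), with single samples as high as 234 in MII replicate 2 and 244 in 2C replicate 1 against 36.9 to 60.2 in the other samples before EGA. SEC13, which also serves in the coat of transport vesicles, was highest in MII (84.9 and 124) and lowest in 16C (5.44 and 11.3), with a log2 difference of −1.09 (SE 0.46, adjusted p = 0.0398). The call for NUP37 was lost without MII replicate 2 (adjusted p = 0.101), 2C replicate 1 (0.108), 8C replicate 1 (0.0566) or 8C replicate 2 (0.0522). The call was also lost without the MII oocytes (−1.15, adjusted p = 0.0941) and with reads scaled to total reads (−0.85, adjusted p = 0.198). It was lost at a difference no smaller without the filter on low counts (−1.32, adjusted p = 0.0512) and with 2C and 4C against 8C and 16C (−1.59, adjusted p = 0.0958). The call for SEC13 was lost without any of 7 samples, namely both MII samples (adjusted p = 0.102 and 0.125), both 16C samples (0.0687 and 0.0637), both CM samples (0.0599 and 0.0507) and 32C replicate 2 (0.0517). Without the MII oocytes its difference was −0.52 (adjusted p = 0.346) and with reads scaled to total reads −0.62 (adjusted p = 0.242), and it was not called without the filter on low counts either (adjusted p = 0.0594).

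The other Y complex loci did not pass. SEH1L, which also acts in nutrient sensing, was at 192 to 406 normalised reads before EGA and 90.6 to 332 after it (−0.71, SE 0.35, adjusted p = 0.0775). It was called without 8C replicate 1 (−0.82, adjusted p = 0.0418) and with stage means weighted equally (adjusted p = 0.0233). It was not called with reads scaled to total reads or with 2C and 4C against 8C and 16C. NUP43 was at 21.9 to 53.2 and 3.60 to 48.5 (−0.67, SE 0.45, adjusted p = 0.197). The NUP107 loci gave −0.07 (SE 0.40, adjusted p = 0.88) for XLOC_056696 and −0.19 (SE 0.34, adjusted p = 0.623) for XLOC_057366, and both were above 0 with reads scaled to total reads (0.41 and 0.27). With that scaling the 4 falls of this complex were not called either, so 0 of its 8 loci passed in limma, against 4 with edgeR and 4 with DESeq2.

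Within the inner ring, the scaffold that lines the channel at the plane of the membrane, 2 of 5 loci fell and 1 rose. NUP35, which bends the pore membrane and was formerly named NUP53, had 300 and 692 normalised reads in the MII oocytes, 221 and 213 in 2C, 231 and 197 in 4C, and 34.2 and 66.5 in 8C. All samples from 8C on lay between 20.3 and 80.9, below every earlier sample. The fall was 5.27-fold (−2.40, SE 0.36, adjusted p = 5.92e-06). NUP155, which joins the inner ring to its neighbours, was highest in the MII oocytes (151 and 266) and in 2C replicate 1 (150), while 2C replicate 2 stood at 48.9 and the 4C embryos at 33.2 and 34.1. After EGA it ranged from 21.8 to 49.7, so that the 4C samples lay within the later range. Its fall of 2.68-fold (−1.42, SE 0.43, adjusted p = 0.00608) was not called without the MII oocytes (−0.80, adjusted p = 0.0944), with reads scaled to total reads (−0.95, adjusted p = 0.055) or with 2C and 4C against 8C and 16C (−0.94, adjusted p = 0.167).

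NUP205, a large solenoid of the same ring, rose between the periods (1.49, SE 0.48, adjusted p = 0.00919), and its step from 4C to 8C was 0.72 (SE 0.76, adjusted p = 0.48) and did not pass. It had 1.85 and 6.38 normalised reads in MII, 42.7 and 8.03 in 2C, 22.1 and 18.7 in 4C, and 22.6 to 56.7 in the 10 later samples. The periods overlapped through 2C replicate 1, and the rise was not called without the MII oocytes (0.77, adjusted p = 0.118) or with edgeR (0.98, adjusted p = 0.0981). NUP188, its paralogue, was near the floor, at 2.13 to 15.8 before EGA and 1.62 to 13.9 after it (−0.08, SE 0.48, adjusted p = 0.894). NUP93, the hub to which the others bind, was at 2.37 to 38.0 and 3.23 to 33.2 (0.25, SE 0.53, adjusted p = 0.693). The direction turned for NUP188 with reads scaled to total reads (0.30) and for NUP93 with edgeR (−0.11).

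No locus of the central channel passed the test between the periods in limma, where 0 of 4 loci were called and none had an unadjusted p under 0.05, and edgeR and DESeq2 called 0. NUP62, NUP54 and NUPL1 (NUP58) make up the channel trimer, and NUP98 is a mobile channel protein. NUP62 was at 6.38 to 48.9 normalised reads before EGA and 8.44 to 46.7 after it (0.07, SE 0.45, adjusted p = 0.894; −0.19 with edgeR). NUP98 was at 40.6 to 108 and 25.4 to 110 (−0.28, SE 0.35, adjusted p = 0.494; 0.19 with reads scaled to total reads). All 4 loci had periods that overlapped. The NUP54 locus with most reads (XLOC_060326) was at 6.46 to 68.2 and 4.06 to 28.9 (−0.66, SE 0.53, adjusted p = 0.283). NUPL1 differed between the 8 stages (adjusted p = 0.0329). It had 192 and 171 normalised reads in 32C, whereas the other 14 samples lay between 27.5 and 84.2. Its difference between the periods was 0.62 (SE 0.39, adjusted p = 0.169) and was called with reads scaled to total reads (1.09, adjusted p = 0.045). The stage call was lost without 32C replicate 1 or 2, 4C replicate 1 or 2 or 16C replicate 1, with adjusted p up to 0.2.

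Of the basket, where messenger RNAs gather before export, 1 of 4 loci fell and 1 rose. TPR, the coiled-coil protein that forms the basket's filaments, had 38.7 to 114 normalised reads before EGA and 14.3 to 40.3 after it (−1.31, SE 0.34, adjusted p = 0.00214). The fall was not called with reads scaled to total reads (−0.84, adjusted p = 0.0605) or with 2C and 4C against 8C and 16C (−1.13, adjusted p = 0.0633). It was highest in MII (89.5 and 114), and only 32C replicate 2, at 40.3, stood above the lowest sample before EGA. NUP50, which helps importins release their cargo, had 3.96 to 21.2 before EGA and 9.51 to 82.6 after it (1.35, SE 0.49, adjusted p = 0.0191). The sample at 82.6 was 8C replicate 2, while 8C replicate 1 was at 25.2, and the rise was not called without MII replicate 2 (1.16, adjusted p = 0.0509) or 2C replicate 1 (1.14, adjusted p = 0.0549). It was also not called without the MII oocytes (0.99, adjusted p = 0.119) or with 2C and 4C against 8C and 16C (adjusted p = 0.158).

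NUP153, which anchors the basket to the ring, had its highest mean in 4C at the locus with most reads (XLOC_039908), with 2111 and 1959 normalised reads. It had 2444 and 946 in MII, 275 and 1062 in 2C, 710 and 707 in 8C, and 316 and 303 in BL. The stages differed (adjusted p = 0.0161), but the periods did not pass in limma (−0.96, SE 0.46, adjusted p = 0.0734), while edgeR (−1.24, adjusted p = 0.0218) and DESeq2 (−1.08, adjusted p = 0.0278) called the locus lower after EGA. The periods of the second locus did not pass in limma either (XLOC_039508; −0.81, SE 0.39, adjusted p = 0.0701). With the stage means weighted equally in the fit of 8 stages, both were called (adjusted p = 0.0175 and 0.0372). Neither was called with reads scaled to total reads, where 0 of the 4 basket loci were lower, or with 2C and 4C against 8C and 16C. Both loci were called without 2C replicate 1 (−1.38 and −1.06) or 16C replicate 2 (−1.09 and −0.92), the first also without 16C replicate 1 (−1.08) and the second also without 8C replicate 2 (−0.93). The stage call of the first was lost without either 4C or either BL sample and with reads scaled to total reads, with adjusted p up to 0.0612.

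NUP210L, a paralogue of the membrane nucleoporin NUP210, showed the largest difference between the periods of the 30 nucleoporin loci tested. It had 10.2 and 5.32 normalised reads in the MII oocytes, 8.70 and 0 in 2C, and 1.85 and 4.06 in 4C, that is 0 to 11 reads in each sample. In 8C it had 117 and 123, in 16C 184 and 249, in 32C 80.4 and 85.6, in CM 69.8 and 164, and in BL 38.6 and 79.2. Every sample from 8C on was above every earlier sample, with 16C highest. The difference between the periods was 4.52 (SE 0.49, adjusted p = 8.82e-08), and that of 8C against 4C was 4.99 (SE 0.85, adjusted p = 0.000576). Both were called in all alternatives run, with adjusted p up to 5.15e-05 and 0.0132. NUP210 itself was listed at 0 in the 15 samples other than MII replicate 1, where a count of 0 allows up to 3 reads, or 1.09 to 5.40 normalised reads.

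Single stages were compared for 2C against MII, 8C against 4C and BL against 8C, and the other pairs of neighbouring stages were not tested. For 2C against MII, 0 of 32 loci were called by limma in either direction, against 1.42% of all loci, with 1.2% higher and 0.217% lower. At an unadjusted p under 0.05 there were 10 nucleoporin loci in limma (31.2%, against 16.4% of all loci), 7 in edgeR and 10 in DESeq2, and the latter tools also called 0. The largest of the 10 were NUPL2 (2.68, SE 1.04, adjusted p = 0.198) and NUP205 (2.12, SE 0.76, adjusted p = 0.159) upward, and RAE1 XLOC_012407 (−1.68, SE 0.66, adjusted p = 0.207) and SEC13 (−1.52, SE 0.56, adjusted p = 0.173) downward. With reads scaled to the total of the sample the median of all loci was 0.77 in place of 0.15. The median of the nucleoporin loci turned to 0.70 from −0.15, and 0 of them were called lower. Of all loci 536 were then called higher and 10 lower in place of 116 and 21. NUP107 XLOC_057366 (2.32), POM121 (2.37) and NUP205 (2.77) then passed. Without 2C replicate 1, NUP210L was called lower (−3.07, adjusted p = 0.0473), with the remaining 2C sample at 0. There, as wherever 1 sample of a stage is left out, the lone sample is assumed to vary like the samples of the other stages.

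For 8C against 4C, the stages on either side of EGA, 1 of 32 loci rose and 1 fell, whereas 17.7% and 19.1% of all loci did, or 36.8% in either direction. At an unadjusted p under 0.05 there were 8 nucleoporin loci, or 25.0%, against 46.1% of all. The rise was that of NUP210L, from 1.85 and 4.06 normalised reads to 117 and 123. The fall was that of NUP35, from 231 and 197 to 34.2 and 66.5 (−2.14, SE 0.55, adjusted p = 0.00806). Values of the stages did not overlap for either gene. The fall of NUP35 was not called without 4C replicate 1 (−2.02, adjusted p = 0.062) or 8C replicate 1 (−1.67, adjusted p = 0.0743). Without 8C replicate 2, both NUP43 (−2.32, adjusted p = 0.0407) and NUP153 XLOC_039508 (−1.97, adjusted p = 0.0363) also passed against the lone 8C sample, and without either 2C sample NUP153 XLOC_039908 did (−1.52).

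For BL against 8C, limma called 1 of 32 loci lower and 0 higher, against 3.63% and 6.44% of all loci and 10.1% in either direction. At an unadjusted p under 0.05 there were 5 loci in limma (15.6%, against 24.7% of all), 6 in edgeR and 7 in DESeq2. The called locus was RAE1 XLOC_012407, which fell from 3075 and 4873 normalised reads in 8C to 853 and 589 in BL (−2.45, SE 0.66, adjusted p = 0.0297). It was not called with edgeR (−2.54, adjusted p = 0.0612) or without 8C replicate 2 (−2.12, adjusted p = 0.12), BL replicate 1 (−2.71, adjusted p = 0.0779) or BL replicate 2 (−2.18, adjusted p = 0.205). NUP214 went from 1.80 and 12.6 in 8C to 24.3 and 53.9 in BL (2.59, SE 0.93, adjusted p = 0.0926), and was called against the lone 8C sample without 8C replicate 2 (3.73, adjusted p = 0.0404).

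The gene names with a pair of loci with reads showed unequal use of them. The locus numbers of RAE1, NUP153 and NUP107 lie in separate series of the same chromosome, and in the annotation of assembly ARS-UCD2.0 the named neighbours of both loci flank the same gene. The files give no strand, so a gene and its antisense partner cannot be told apart, and each locus is reported as uncertain. XLOC_012407 held 97553 reads over all samples against 1446 for the other RAE1 locus, a ratio of 17.7 to 146 within samples with a median of 58.2. For NUP153 the ratio was 6 to 25.7 with a median of 12.1, and for NUP107 2.45 to 13.1 with a median of 5.05. The NUP54 loci XLOC_060326 and XLOC_060661 held 512 and 2 reads over all samples, and their strand is not given either. In every sample the same locus of each name had more reads.

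**Figure D4:**
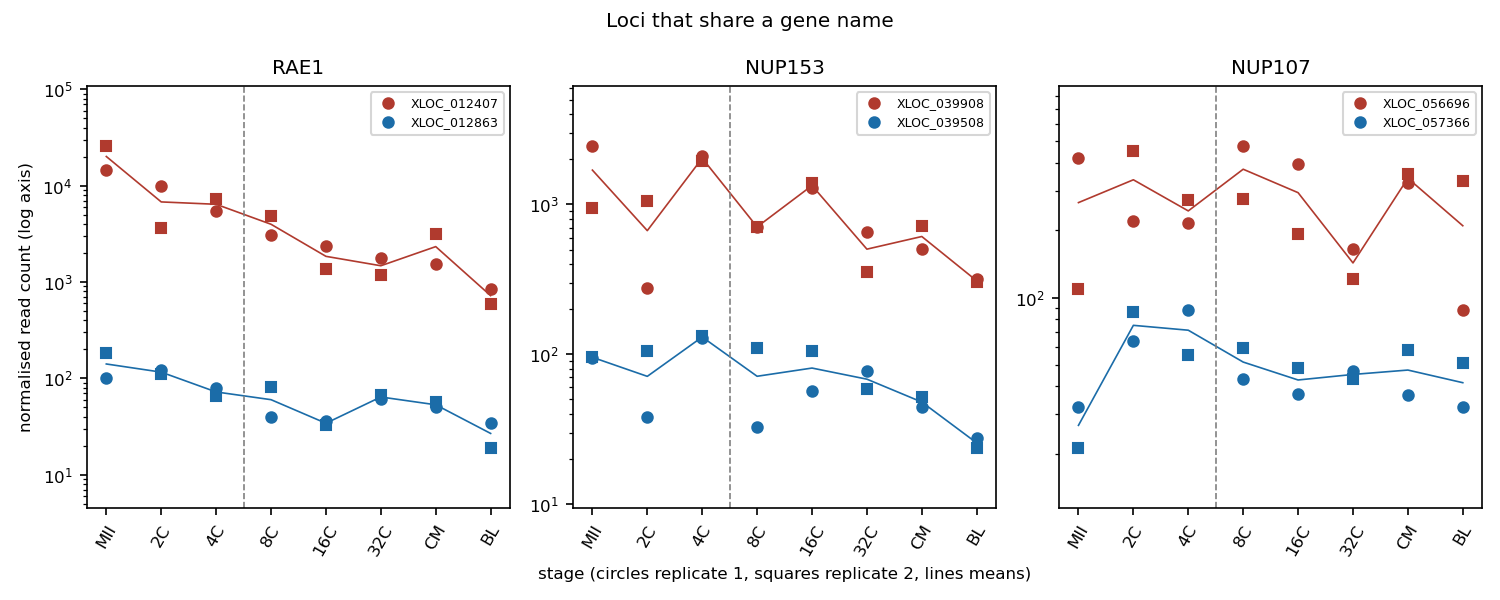
Normalised read counts by stage on a logarithmic axis for the pairs of loci that share the name RAE1, NUP153 or NUP107, with circles and squares for replicates 1 and 2 and lines through the stage means. The locus with more reads (red) lies above the other in all 16 samples of each panel; the RAE1 loci are both lowest in BL, and the first NUP153 locus has its highest mean in 4C.

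Summed over all 35 loci, nucleoporins took 9024 ± 2485 CPM (reads relative to the total reads of the sample) before EGA and 3983 ± 1258 CPM after it (SD, n = 6 and 10). The sum followed the larger RAE1 locus, which held 78.4 ± 7.6% of nucleoporin reads in MII and 32.8 ± 7.7% in BL (SD, n = 2). Without it the sums were 2605 ± 348 and 2188 ± 600, and they overlapped. By part of the pore, the inner ring was at 219 to 405 CPM before EGA and 86.6 to 269 after it, and on normalised reads it was at 289 to 983 and 94.3 to 190, without overlap. NUP35, whose own periods did not overlap, held on average 496 of the 728 normalised reads of this ring in MII, whereas NUP205 rose between the periods. The Y complex had its highest mean in 2C (884 ± 26.8), though on normalised reads it was highest in MII (1178 ± 49.4, against 1071 ± 60.2 in 2C). The central channel was highest in 32C (396 ± 111) and the basket in 4C (1693 ± 53.0). The basket sum there was mostly NUP153 XLOC_039908 (1536 ± 75.9 CPM in 4C), while TPR had its highest mean in MII and NUP50 in 8C. The membrane ring, which here is mostly POM121, was at 9.20 to 57.2 before EGA and 36.7 to 230 after it. The cytoplasmic face without the larger RAE1 locus was at 233 to 610 and 190 to 487. These sums are descriptions, since the loci differ in length and depth and were not tested together.

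**Figure D5:**
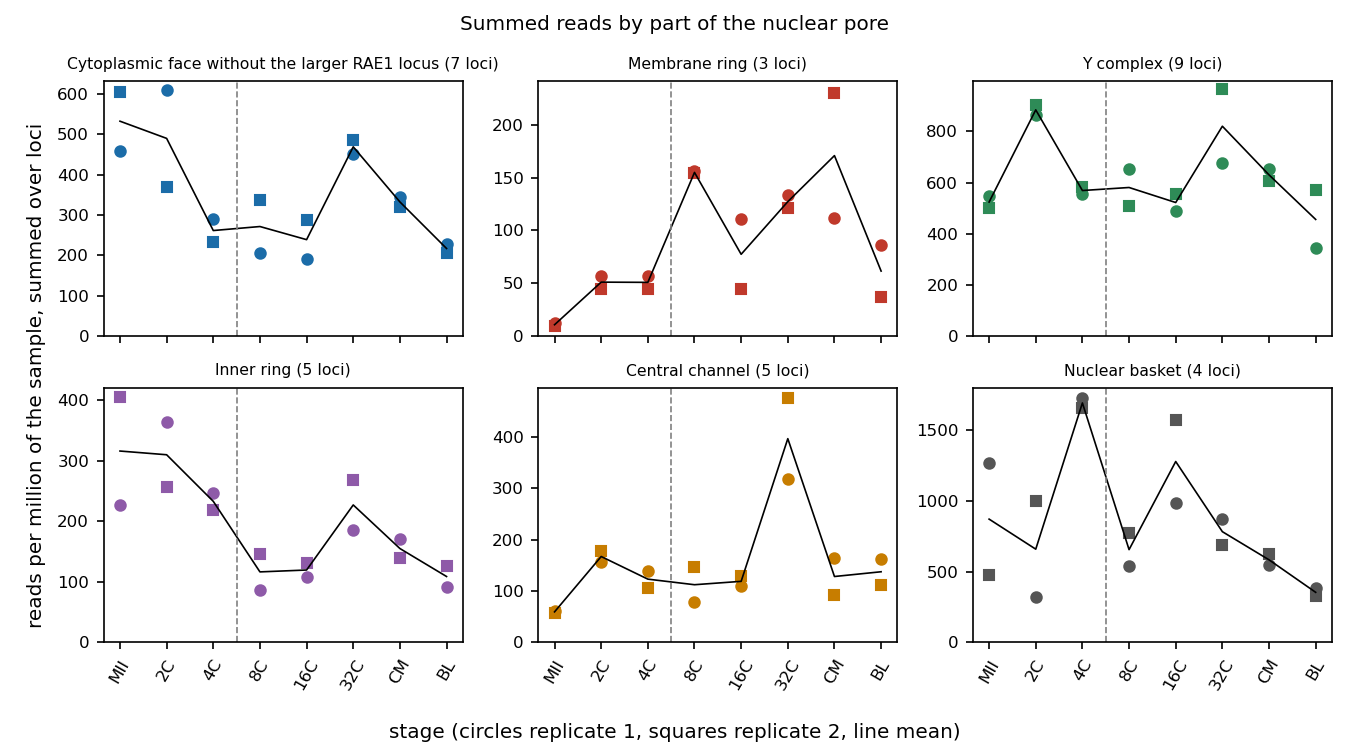
Reads relative to the total of the sample (CPM), summed over the loci of each part of the nuclear pore, by stage, with circles and squares for replicates 1 and 2, a line through the means and a dashed line at EGA. The cytoplasmic face is drawn without the larger RAE1 locus; every inner ring sample after EGA except 32C replicate 2 lies below the lowest before it, the central channel has its highest mean, 396, in 32C, and the basket its highest, 1693, in 4C.

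The machinery that moves cargo through the pore was listed separately. Importins and exportins are receptors that carry cargo, and the small GTPase Ran, with its exchange factor RCC1 and its activator RANGAP1, sets their direction. Of 34 names 33 were found, with 38 loci of which 30 were tested between the periods. In limma 19 rose and 1 fell, against 36.9% and 29.9% of all loci, with a median log2 difference of 1.35 against 0.23 for all loci and −0.55 for nucleoporins. With reads scaled to total reads 22 rose and 1 fell, against 41.6% and 23.1% of all loci. With edgeR 16 rose and 3 fell, against 2249 and 2144 of all 6910 loci. Without the MII oocytes 18 of 32 rose and 3 fell, against 32.7% and 28.3% of all loci, with a median of 1.06. The 3 largest rises without overlap of the periods were those of XPO5, IPO7 XLOC_016995 and RANGAP1 XLOC_057082. XPO5, the exporter of microRNA precursors, ranged between 20.2 and 56.9 normalised reads before EGA and between 519 and 3681 after it (5.53, SE 0.43, adjusted p = 7.03e-10). IPO7, an importin, ranged between 7.45 and 44.3 and then between 199 and 1246 (4.77, SE 0.45, adjusted p = 1.3e-08). RANGAP1 ranged between 1.06 and 13.8 and then between 71.2 and 303 (4.38, SE 0.43, adjusted p = 2.19e-08). The fall was that of KPNA7, an importin alpha of oocytes and early embryos, with values between 57.7 and 262 before EGA and between 0 and 29.8 after it (−5.78, SE 0.66, adjusted p = 1.54e-07).

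Among 18 names of the nuclear lamina and envelope, which holds the pores, 17 were found, and 3 of 13 tested loci rose while 2 fell, against 36.9% and 29.9% of all loci, with a median log2 difference of −0.26. The sign of that median turned with reads scaled to total reads (0.20, with 4 rises) and without the MII oocytes (0.21, with 4 rises), and 2 loci rose with TMM factors or edgeR. The falls, both without overlap, were those of SYNE1 XLOC_070301 (−6.23, SE 0.91, adjusted p = 4.56e-06) and SYNE2 (−1.87, SE 0.49, adjusted p = 0.00206), which link the nuclear envelope to the cytoskeleton. The SYNE1 locus had 125 to 4155 normalised reads before EGA and 0 to 51.7 after it. SYNE2 had 48.9 to 128 before EGA and 3.23 to 43.2 after it. The rises, with overlap, were those of LMNA, which encodes lamin A/C (2.40), ZMPSTE24, the protease that matures lamin A (1.73), and LBR, the lamin B receptor (1.51).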

How the data were processed

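RNA-Seq of 16 single bovine oocytes and embryos (8 stages, 2 samples each, grouped by the labels) was used. The authors deposited, for 27393 loci, a signal equal to the reads counted divided by a size factor of the sample. The submitters' processing notes name cutadapt, FastQC, TopHat, Cufflinks and HTSeq. Genome build, strand rule and the treatment of reads with several positions are not given in the sources used here. Dividing by the smallest value above 0 of a sample gave whole reads for 100% of its values (tolerance 0.01). Depth was 607672 to 3379426 reads per sample. The amplification was without molecular identifiers, so floors cover counting error only.

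Differences were tested with limma 3.58.1 (R 4.3.3, empirical Bayes with trend) on log2 of the deposited signal plus 1, over loci kept by edgeR's filterByExpr: 9670 for the fit of 8 stages and 6910 for the periods before and after EGA. Adjustment was by Benjamini-Hochberg over all loci tested. edgeR 4.0.16 and DESeq2 1.42.0 on the recovered reads were alternatives, and edgeR called 2249 loci higher and 2144 lower between the periods. Other alternatives were scaling to total reads or by TMM, pseudocounts of 0.5 and 5, no filter, summed loci of a name, other groupings of stages, a replicate block and leaving out each sample. Samples of a stage differed by more than counting error, with a chi-square per degree of freedom of 14.8 to 151. Sums are CPM of recovered reads.

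Gene names came from the deposited table. Of the 31 names 27 matched the symbols and 2 the synonyms of an annotation of assembly ARS-UCD2.0, and POM121 and TMEM48 did not match. All 35 loci are named. Loci past the threshold with the 4 largest rises or falls in a comparison are given by values of samples or stages, in part as ranges. The other loci are given by ranges and by their tests. NUPL1, NUP214, NUP153, SEC13 and the larger of the falls and rises below the threshold were chosen for closer description after their values were seen. Of the transport and envelope lists, the 3 largest rises and falls without overlap are named, and the lamina rises were added after their values were seen. The members and lists were chosen with earlier results of these data known.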

Additional observations from a re-analysis of the deposited data

Results flagged for a closer look

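Values of 3 loci stood apart from the others of their period on the log2 scale, by the gap to the nearest sample as a share of the range of the period. Of 60 groups examined 3 stood out, and the limits of this rule are set to mark about 1 in 20 groups by chance, a nominal rate that was not measured here. NUP35 in MII replicate 2 was the highest sample before EGA, with 692 normalised reads against 300 in the next sample and a gap of 0.667 of the range. NUP153 XLOC_039508 in 2C replicate 1 was the lowest before EGA, with 38.0 against 95.1 and a gap of 0.733. NUP93 in 16C replicate 2 was the lowest after EGA, with 3.23 against 16.2 and a gap of 0.672. The fall of NUP35 between the periods was called without MII replicate 2 as well.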

How the results depend on the processing

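The calls between the periods of NUP88, NUP35, NUP210L and AAAS held under all 28 alternatives, and those between the 8 stages of 7 loci (RAE1 XLOC_012407, NUP88, NUP35, SEC13, POM121, NUP210L and AAAS) under all 26. No called locus changed direction. Loci that were not called changed sign in 36 of the alternative values between the periods, 41 for 2C against MII, 15 for 8C against 4C and 16 for BL against 8C, and the cause was not tested.

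Between the periods before and after EGA 3 nucleoporin loci fell with reads scaled to total reads in place of 10. With 2C and 4C against 8C and 16C, 2 rose and 3 fell, with fewer samples. The share of all loci called in that setting is not given here, so the lost calls are not read as particular to nucleoporins. Without the MII oocytes, added after seeing the data, 2 rose and 7 fell, against 32.7% and 28.3% of all loci. Without a filter 7075 of all loci were called in place of 4619, with more loci tested. For 2C against MII, 137 of all loci were called, against 546 with total reads (where 3 nucleoporin loci were higher), 44 with edgeR, 360 with DESeq2 and 0 with these stages fitted alone. For 8C against 4C, 2 nucleoporin loci fell with TMM, a pseudocount of 5, DESeq2 or these stages alone, which also gave 2 rises and 1952 of all loci in place of 3560. For BL against 8C, 1 locus was higher with a pseudocount of 5, and with edgeR or these stages alone 0 were lower and 339 and 165 of all loci were called in place of 974. edgeR split these calls into 141 higher and 198 lower, against 623 and 351 in limma. The summed CPM gave a log2 ratio of −1.18, −1.77 on deposited values and, without the larger RAE1 locus, −0.25, or −0.77 on deposited values (added after seeing the data).

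Leaving out single samples, nucleoporin loci called between stages ranged from 11 to 21, with 12 without MII replicate 2, 4C replicate 1, 32C replicate 1 or 2 or BL replicate 2 and 11 without 4C replicate 2. Between the periods 4 to 5 nucleoporin loci rose and 8 to 11 fell, while 4280 to 4636 of all loci were called in either direction. For 2C against MII all loci called ranged from 18 (without MII replicate 2) to 302 (without 8C replicate 2), with 24 and 285 without 2C replicates 2 and 1, and 0 nucleoporin loci were higher and 0 to 1 lower. For 8C against 4C the range was 1935 to 3844, lowest without 4C replicate 2 and 2003 without 4C replicate 1, with 1 nucleoporin locus higher and 0 to 3 lower. For BL against 8C it was 238 (without BL replicate 2) to 1600 (without 8C replicate 1), with 584 without BL replicate 1, and 0 to 1 nucleoporin loci higher and lower. The log2 ratio of sums ranged from −1.28 to −1.06.

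Replicate numbers did not pair the samples: deviations of same-numbered samples correlated between −0.30 and 0.14 over 28 pairs of stages, with 1 pair over 0.1. With the replicate block 6381 loci and 18 nucleoporin loci differed between stages, 4579 loci differed between the periods, 109 for 2C against MII, 3515 for 8C against 4C with 2 nucleoporin loci lower, and 931 for BL against 8C. With the numbers of the 8C samples exchanged, also added after seeing the data, 6292 and 14 differed between stages. Loci with few reads, such as NUP188, NUPL2 and TMEM48, are limited by depth, and differences of 2 samples a stage by their spread.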
